A study of Mus musculus with 12 samples.

Results

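The comparison sets H3K4me3 in adult Lgr5-high intestinal stem cells (ISC) against H3K4me3 in the small-intestinal epithelium of the mouse embryo at E14.5. The assay was chromatin immunoprecipitation followed by sequencing (ChIP-seq), and the deposited values are lists of peaks, the intervals where immunoprecipitated fragments exceed an input control. The 4 peak lists, 2 for ISC and 2 for E14.5, were merged wherever peaks overlapped or touched. This gave 19269 autosomal regions, and all 8 peak lists of the series merged into 23602 autosomal regions. Of the 19269 regions, 16087 were called in at least 2 of the 4 libraries and entered the test of covered length, which is the number of bp of a region that lie under a library's peaks.

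All mice were of mixed C57BL/6 CD1 background. The E14.5 libraries came from embryonic epithelium sorted as EpCAM-positive, living cells without the endothelial marker CD31 and the leukocyte marker CD45. The ISC libraries came from crypts of Lgr5EGFP-Cre-ERT males at 2 months of age (P60), a line in which EGFP is read out from the Lgr5 locus, sorted for high Lgr5-EGFP. The labels name this allele for the adult mice only and do not give the sex of the embryos. The study also holds E12.5 epithelium, sorted as at E14.5, and enterocytes of 2-month-old mice of the same line sorted by EpCAM, with 2 libraries each and 1 input library per group. The E14.5 cells are thus a whole epithelium and the ISC 1 gated cell type, so that age, sort, reporter allele and input cannot be told apart in this comparison.

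H3K4me3 is a modification of histone H3 laid down by the SET1 and MLL methyltransferase complexes around the starts of active genes and, together with H3K27me3, of poised ones. Most promoters carry it over a short stretch. A small number carry it over several kb, and such broad domains are known to mark genes tied to the identity of a cell. In the adult intestine Lgr5-positive cells at the crypt base renew the epithelium under Wnt signals, while the fetal epithelium before villus formation is a proliferating layer that signals to the mesenchyme through hedgehog ligands.

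The sequences upstream of 5 loci that the results turn on are shown to let the base composition of a stem-cell locus be read beside that of an embryonic one. They are the 250 bases before the transcription start in RefSeq (build GRCm38.p6), 5′ to 3′ on the gene's own strand, with CG dinucleotides in capitals. The peaks are in mm9, and their position relative to these bases was not analysed here. Olfm4, Pigr and Fscn1 lie on the plus strand, as does Axin2, and Trim71 on the minus strand.
Olfm4: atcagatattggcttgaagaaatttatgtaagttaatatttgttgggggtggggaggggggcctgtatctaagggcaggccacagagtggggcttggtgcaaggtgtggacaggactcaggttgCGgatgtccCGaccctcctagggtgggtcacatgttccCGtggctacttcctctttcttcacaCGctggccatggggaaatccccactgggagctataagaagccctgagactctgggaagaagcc
Pigr: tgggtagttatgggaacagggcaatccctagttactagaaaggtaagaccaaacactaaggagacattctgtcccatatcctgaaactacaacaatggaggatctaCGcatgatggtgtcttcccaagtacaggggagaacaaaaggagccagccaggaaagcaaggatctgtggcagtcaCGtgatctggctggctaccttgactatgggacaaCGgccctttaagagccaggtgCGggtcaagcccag
Axin2: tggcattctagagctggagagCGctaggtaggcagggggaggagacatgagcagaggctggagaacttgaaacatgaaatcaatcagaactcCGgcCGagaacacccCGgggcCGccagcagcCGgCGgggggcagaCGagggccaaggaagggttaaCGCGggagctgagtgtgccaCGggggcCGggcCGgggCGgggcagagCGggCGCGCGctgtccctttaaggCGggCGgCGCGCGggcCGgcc
Trim71: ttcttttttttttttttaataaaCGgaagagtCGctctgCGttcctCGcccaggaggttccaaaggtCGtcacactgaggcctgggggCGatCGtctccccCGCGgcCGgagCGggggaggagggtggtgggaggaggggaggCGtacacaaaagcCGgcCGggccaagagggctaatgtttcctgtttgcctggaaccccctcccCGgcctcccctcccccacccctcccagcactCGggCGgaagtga
Fscn1: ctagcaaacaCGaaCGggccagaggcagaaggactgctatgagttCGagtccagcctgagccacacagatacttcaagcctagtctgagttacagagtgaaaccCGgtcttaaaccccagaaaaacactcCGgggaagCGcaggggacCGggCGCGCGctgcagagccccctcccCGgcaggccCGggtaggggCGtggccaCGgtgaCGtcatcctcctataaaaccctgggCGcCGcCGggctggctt
The Olfm4 and Pigr stretches hold 4 CG dinucleotides each, those of Trim71 and Fscn1 17 and 18, and that of Axin2 24. Over the first listed start of 27025 symbols the median was 6, with quartiles of 2 and 16. Of the 28 genes named by the rule for this comparison, 23 matched a RefSeq entry. The 11 with longer coverage in ISC had a median of 5 CG dinucleotides (range 2 to 26) and the 12 with longer coverage at E14.5 a median of 15 (range 1 to 24), given without a test since the genes were chosen by their coverage. Each gene was counted at 1 start, also where several are listed. The lowest value, 1, is that of Igf2, for which 4 starts are listed. The hexamer TATAAA, searched on both strands, was in 2 of the 11, 1 of the 12 and 13.0% of all 27025.

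The ISC libraries had 13355462 and 25547814 tags and 12738 and 15115 autosomal peaks in replicates 1 and 2. The E14.5 libraries had 43259380 and 22718162 tags and 15668 and 17068 autosomal peaks. ISC replicate 1, the least sequenced of the 4, had the shortest list, while within E14.5 the replicate with more tags had fewer peaks. A region missing from the list of ISC replicate 1 may hold the mark below what the caller could report at such depth. To put the libraries on 1 scale, covered length was divided by a factor that equalizes their medians over the regions called in all 4, which was 0.81 and 0.98 for ISC and 1.102 and 1.138 for E14.5. Printed covered lengths are unscaled. Duplicates are biological ones according to the design text. The p-values rest on the spread between duplicates, pooled over ISC, E14.5, E12.5 and enterocytes. Duplicates of E12.5 or enterocytes that differ at a region therefore raise its p-value. In sorted bulk cells, a smaller share of cells with the mark and less of the mark per cell cannot be told apart.

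Loci known to mark the sorted cells were checked first. Their regions were chosen after the values were seen. At Lgr5, the R-spondin receptor used for the sort, coverage (chromosome 10, 115021732 to 115025494) came to 3287 and 3034 bp in ISC against 2624 and 2611 bp at E14.5. E12.5 had 0 and 1592 bp there, and enterocytes 0 and 222 bp. Ascl2, a basic helix-loop-helix factor of crypt stem cells, was covered over 1677 and 2491 bp in ISC against 1893 and 2197 bp at E14.5, with 0 bp in both E12.5 libraries and 0 and 794 bp in enterocytes. Both stem cell loci were therefore called in all 4 libraries compared. Neither passed the test of covered length between ISC and E14.5 (limma adjusted p of 0.87 at Lgr5 and 0.91 at Ascl2). The log2 changes were 0.56 (SE 1.13) and 0.30 (SE 0.75), with a spread that takes in the E12.5 and enterocyte libraries. With only the ISC and E14.5 libraries in the limma fit, the adjusted p was 0.11 at Lgr5 and 0.23 at Ascl2. Epcam, the adhesion molecule of the epithelial sort, was called in all 8 libraries, with 4414 and 5198 bp in ISC against 3925 and 3838 bp at E14.5 (log2 change 0.60, SE 0.10, adjusted p = 0.0098). The Epcam call was lost without scaling and in 4 of the other alternatives, over which the adjusted p ran from 0.0063 to 1.

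More regions had longer coverage at E14.5 than in ISC. By limma, 565 of the 16087 tested regions (3.51%) were longer in ISC and 2046 (12.7%) were shorter, at a Benjamini-Hochberg adjusted p of 0.05. By presence alone, 370 of the 19269 regions (1.92%) were gained, meaning called in both ISC libraries and in neither E14.5 library, and 2279 (11.8%) were lost, the other way round. A peak in each ISC library and 1 E14.5 library was found for 142 regions, and one in each E14.5 library and 1 ISC library for 1382. Most of the limma calls were regions of the gained and lost classes, with 302 of the longer and 1831 of the shorter ones. These classes are defined by 0 bp in both libraries of 1 group, so their limma calls are not evidence apart from presence. Among regions called in all 4 libraries the longer ones outnumbered the shorter. The 11625 regions called in all 4 libraries held 238 longer (2.05%) and 136 shorter regions (1.17%), and 30 and 16 when they were fitted alone.

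The balance of directions moved with the scaling and the lists. Of the called regions, 21.6% were longer in ISC under the median scaling, 12.4% without scaling, which put the median log2 change at −0.34, and 48.2% under quantile normalization. Lists cut to an equal number gave 43.4%. Gained regions numbered 1639 without ISC replicate 1 and 763 without ISC replicate 2. Lost regions numbered 3624 without ISC replicate 2 and 3549 without E14.5 replicate 1. With a library left out, the other library of its group alone defines gained and lost, a looser rule that by itself raises both counts. Longer regions numbered 352 without E14.5 replicate 1.

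**Figure D1:**
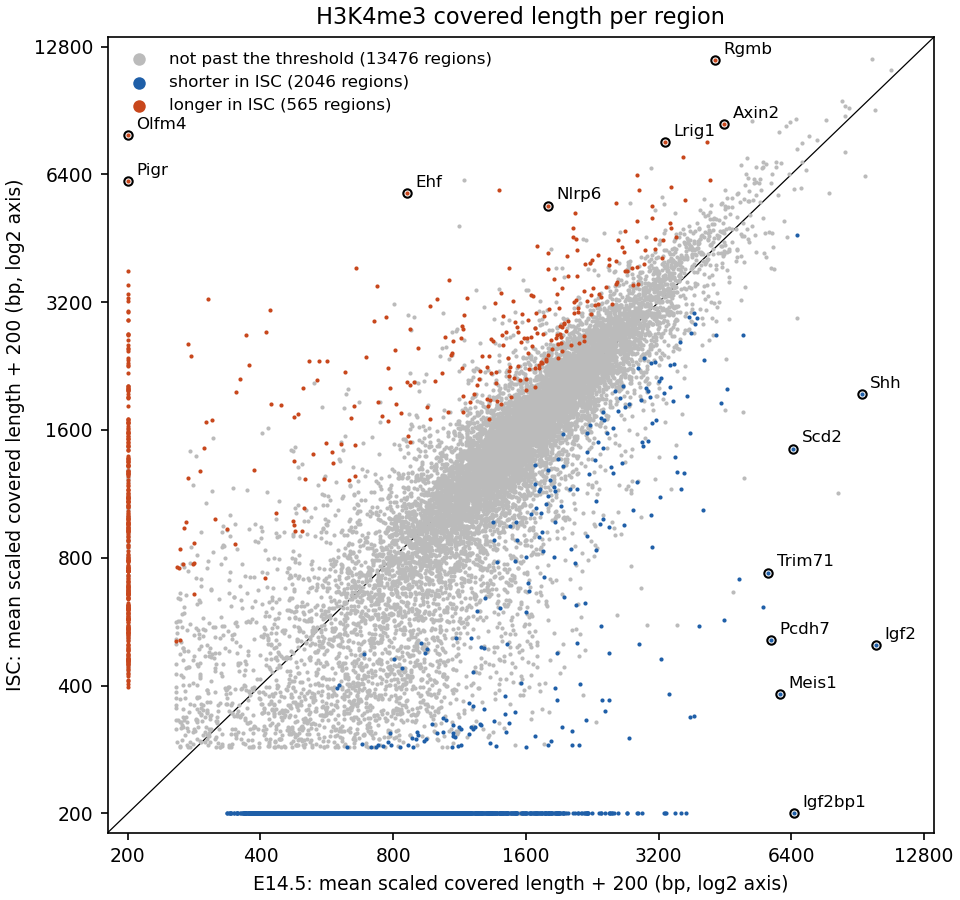
Mean scaled covered length plus 200 bp per tested region at E14.5 (horizontal) and in ISC (vertical), both on log2 axes, with 1 point per region and the diagonal marking equal length. Regions longer in ISC (565) lie above the diagonal and regions shorter in ISC (2046) below it, and the straight lines of points at 200 bp are regions with no peak in either library of 1 group.

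The widest gained domain lay at Olfm4, a secreted glycoprotein and a marker of crypt-base stem cells. It spanned chromosome 14 from 80399966 to 80407772 and was covered over 6075 bp in ISC replicate 1 and 7807 bp in ISC replicate 2. No peak was called there in the E14.5, E12.5 or enterocyte libraries, so that only the stem cell libraries carried it (6941 bp ± 1225 against 0 bp, SD, n = 2, limma adjusted p = 8.7e-05). For regions with 0 bp in both libraries of a group no fold is given. Such a group has no spread between its libraries, so the adjusted p there may be too small.

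Second was Pigr, the receptor that carries polymeric immunoglobulins across the epithelium, on chromosome 1 from 132722753 to 132728336. Pigr was covered over 5064 and 5584 bp in ISC, with 4609 and 3906 bp in enterocytes. All 4 adult libraries had a long peak there, and none of the 4 embryonic libraries had any (limma adjusted p = 8.7e-05 for ISC against E14.5).

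The other 6 of the 8 widest gained regions were between 2548.5 and 3205 bp in the ISC mean, and the next region below them had 2526 bp. They held Ceacam1, a cell adhesion molecule of the epithelial surface, with 2952 and 3458 bp in ISC (chromosome 7, 26259254 to 26262711). Aqp1, a water channel, had 2956 and 2941 bp in ISC and 1597 and 3062 bp in enterocytes (chromosome 6, 55286271 to 55289332, adjusted p = 0.00026). A region at Abcg8, which with its neighbour Abcg5 encodes the sterol exporter of the apical membrane, had 2531 and 2875 bp (chromosome 17, 85081299 to 85084184). The 2 genes start so close together that the region may belong to either. It is labelled Abcg8 here, and the Abcg8 sequence stands for it in the counts of upstream bases. Cldn15, a claudin that forms cation pores between enterocytes, had 2378 and 2719 bp (chromosome 5, 137443205 to 137445923). The remaining 2 go by position, from 78318141 to 78321651 on chromosome 18 and from 145685859 to 145688630 on chromosome 2. Of these 8 widest regions, all but Olfm4 and the chromosome 18 region were also called in both enterocyte libraries, and none was called at E12.5. The gained calls at these 8 loci held in each alternative that could test them. The 8 were chosen as the longest regions with 0 bp at E14.5, so this follows largely from the choice. Among peaks whose −log10 q was 10 or more, only Pigr and Cldn15 could be tested. The others, with Olfm4 at a −log10 q of 5.74 and 8.95, were not called there in at least 2 of the 4 libraries.

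**Figure D2:**
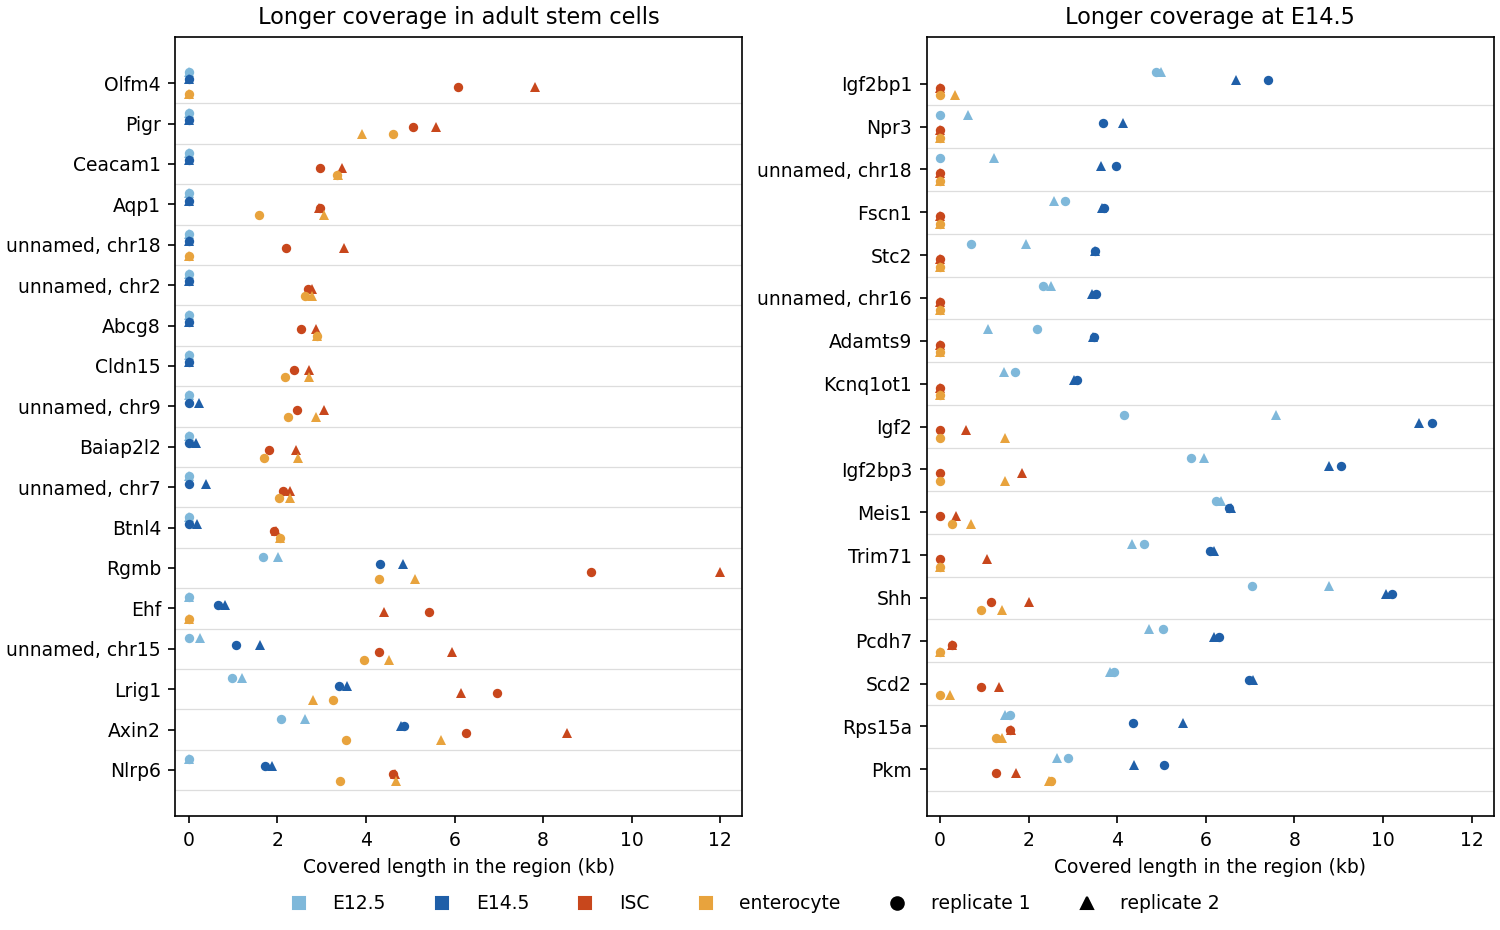
Unscaled covered length in kb of 35 regions named by the rule, 18 with longer coverage in ISC (left) and 17 with longer coverage at E14.5 (right), with 1 point per library, colours for the groups and shapes for the replicates. At Olfm4 only the 2 ISC libraries lie above 0, at Pigr the 4 adult libraries do, and at Meis1 the 4 embryonic libraries lie between 6239 and 6579 bp.

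A further class had a peak in both ISC libraries and in 1 E14.5 library. Its 4 regions with the largest difference had 1818 to 3043 bp in the ISC libraries, 170 to 388 bp in E14.5 replicate 2 and 0 bp in E14.5 replicate 1. Baiap2l2, a membrane-shaping protein of epithelial cells, was covered over 1818 and 2411 bp in ISC against 0 and 170 bp at E14.5 (chromosome 15, 79114169 to 79116629, adjusted p = 0.00099). Btnl4, a member of the butyrophilin-like family of the gut epithelium, was covered over 1918 and 1969 bp in ISC, with 0 and 179 bp at E14.5 (chromosome 17, 34612294 to 34614346, adjusted p = 0.0012). The others began at 59786095 on chromosome 9 (adjusted p = 0.0011) and 114808307 on chromosome 7 (adjusted p = 0.0075, and 0.064 at the highest, without ISC replicate 1). In each of the 4 the enterocyte libraries were as long as the ISC libraries or nearly so, and E12.5 was at 0 bp.

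Regions called in all 4 libraries could also be longer in ISC, and 6 with the largest rise are named. Rgmb, a bone morphogenetic protein co-receptor of the repulsive guidance family, was covered over 9077 and 12000 bp in ISC against 4326 and 4845 bp at E14.5 (chromosome 17, 15956582 to 15968581). Enterocytes had 4285 and 5109 bp and E12.5 1669 and 2023 bp. Both ISC libraries were above all 6 others and both E12.5 libraries below all 6 others, and the log2 change from E14.5 to ISC was 1.47 (SE 0.10, limma adjusted p = 0.00025). In the E14.5 and enterocyte libraries the domain was broken into 2 pieces, whereas each ISC library had 1 unbroken peak.

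At Lrig1, a negative regulator of ErbB receptors and a stem cell marker, ISC had 6952 and 6141 bp and E14.5 3402 and 3579 bp (chromosome 6, 94644707 to 94651780). The log2 change was 1.18 (SE 0.19, adjusted p = 0.0089). Axin2, a target and feedback inhibitor of Wnt signalling, had 6263 and 8539 bp in ISC against 4853 and 4793 bp at E14.5 (chromosome 11, 108781246 to 108789784). Its log2 change was 0.90 (SE 0.18, adjusted p = 0.020). Enterocytes had 3547 and 5705 bp at Axin2 and overlapped the E14.5 values, and E12.5 had 2090 and 2635 bp. The E14.5 peaks ended 716 and 611 bp past the centre of the Axin2 region, while the ISC replicate 2 peak ran 4269 bp past it and ISC replicate 1 had a separate peak from 2435 to 3725 bp.

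Ehf, an ETS-family factor of epithelia, changed more, from 670 and 814 bp at E14.5 to 5412 and 4401 bp in ISC (chromosome 2, 103138900 to 103144514, log2 change 2.72, SE 0.27, adjusted p = 0.0010). The peaks of the 2 E14.5 libraries did not overlap each other, and no peak was called at that stretch in enterocytes or at E12.5. Nlrp6, an innate immune receptor of the gut, had 4602 and 4651 bp in ISC against 1714 and 1873 bp at E14.5 (chromosome 7, 148106674 to 148111377, log2 change 1.58, SE 0.13, adjusted p = 0.00044). A region without a name on chromosome 15, from 85500256 to 85506199, had 4293 and 5944 bp in ISC against 1058 and 1613 bp at E14.5 (log2 change 2.10, SE 0.45, adjusted p = 0.030). Nlrp6 and the chromosome 15 region were also long in enterocytes, at 3415 and 4684 bp and at 3948 and 4519 bp. Calls at Axin2 (adjusted p from 0.016 to 1 over 16 alternatives), Lrig1 (0.0011 to 1) and the chromosome 15 region (0.0011 to 0.24) were lost in 7, 4 and 8 of these, when either E14.5 library was left out among them. Those at Axin2 and the chromosome 15 region were also lost without either ISC library, and without scaling the Axin2 log2 change was 0.58 (adjusted p = 0.18). Those at Rgmb (up to 0.88) and Nlrp6 (up to 0.20) were lost only among peaks whose −log10 q was 10 or more.

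**Figure D3:**
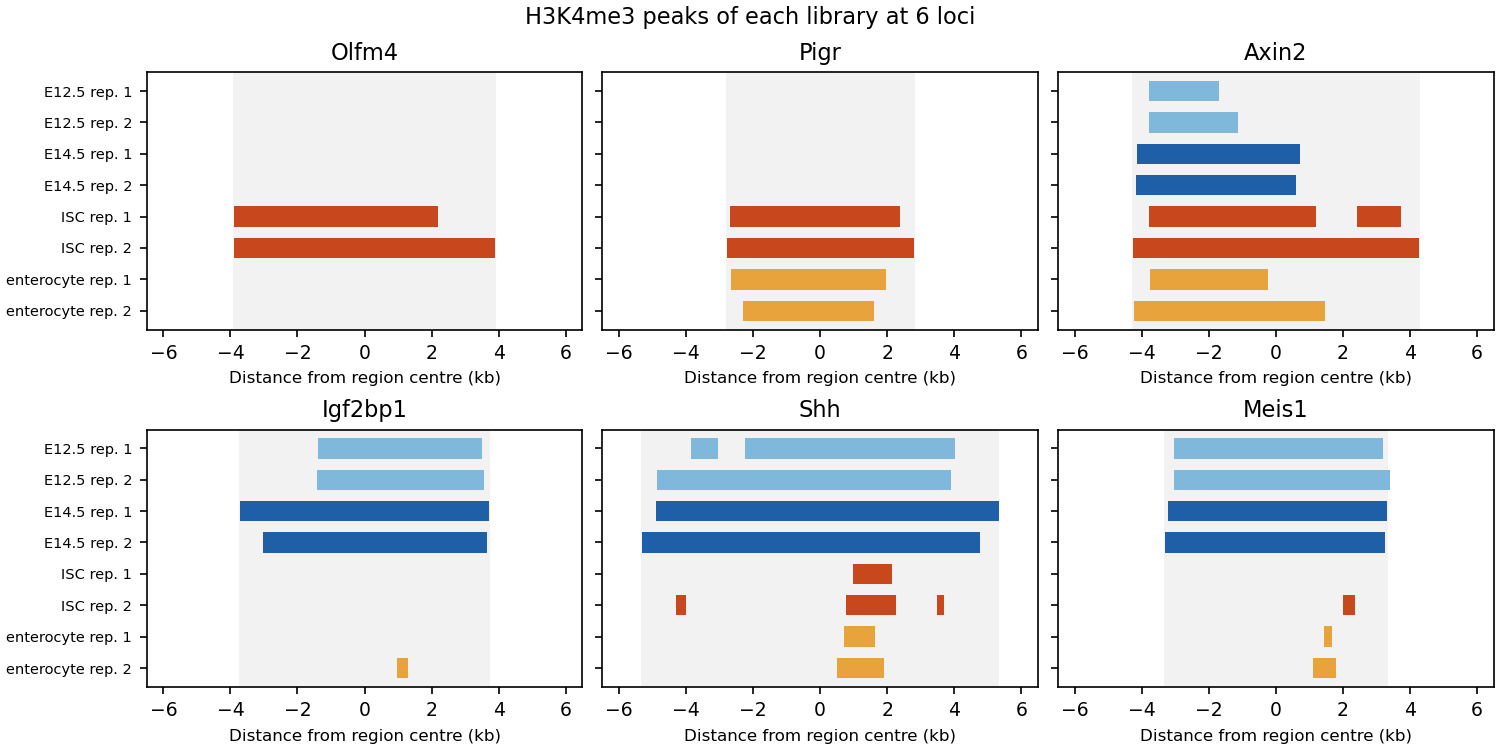
Peaks of each library (bars) at 6 loci, drawn by distance in kb from the centre of the merged region, whose extent is shaded. Olfm4 has bars in the ISC libraries alone, Pigr in the 4 adult libraries, and at Igf2bp1, Shh and Meis1 the embryonic bars span most of the region while the ISC bars are short or missing.

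On the E14.5 side, the widest lost domain lay at Igf2bp1, an oncofetal RNA-binding protein. It spanned chromosome 11 from 95862240 to 95869647 and was covered over 7408 and 6673 bp at E14.5 and 4872 and 4997 bp at E12.5. No ISC library and 1 enterocyte library, with 328 bp, had a peak there (E14.5 mean 7040.5 bp ± 520 against 0 bp, SD, n = 2, limma adjusted p = 0.00074). The Igf2bp1 call was lost only among peaks whose −log10 q was 10 or more (adjusted p from 1.7e-05 to 0.20). At that cut E12.5 replicate 1 kept 1439 autosomal peaks, against 11612 and 11592 at E14.5, and its values enter the spread of the test.

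The next 7 lost regions had E14.5 means between 3059.5 and 3911 bp, and the one below them 2995.5 bp. Fscn1, an actin-bundling protein of cell protrusions, had 3713 and 3651 bp at E14.5 and 2831 and 2574 bp at E12.5 (chromosome 5, 143721701 to 143725413, adjusted p = 8.7e-05). Adamts9, a secreted metalloprotease, had 3477 and 3462 bp at E14.5 (chromosome 6, 92890490 to 92894084, adjusted p = 0.00097). Stc2, a secreted glycoprotein, had 3501 and 3500 bp (chromosome 11, 31268258 to 31271806, adjusted p = 0.00084). None of these 3 was called in any adult library. Npr3, the clearance receptor for natriuretic peptides, had 3688 and 4134 bp at E14.5 but only 0 and 640 bp at E12.5 (chromosome 15, 11833095 to 11837228, adjusted p = 0.014). Kcnq1ot1, a long non-coding RNA transcribed from the imprinting control region of its cluster, had 3095 and 3024 bp (chromosome 7, 150479408 to 150482514, adjusted p = 0.00016). The last 2 go by position, from 86879399 to 86883765 on chromosome 18 (adjusted p = 0.041) and from 74409933 to 74413453 on chromosome 16 (adjusted p = 8.7e-05). The Fscn1 call was lost only among peaks whose −log10 q was 10 or more (adjusted p up to 0.20). Leaving out any 1 of the 4 libraries ended the calls at Npr3 (up to 0.13) and on chromosome 18 (up to 0.26).

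Of the regions called in both E14.5 libraries and 1 ISC library, the 4 with the largest difference in mean covered bp had a short peak in ISC replicate 2 and none in ISC replicate 1. Igf2, an imprinted fetal growth factor, was covered over 11105 and 10809 bp at E14.5 and over 0 and 586 bp in ISC (chromosome 7, 149840171 to 149851336, limma adjusted p = 0.048). Igf2bp3, an RNA-binding protein of the same oncofetal family as Igf2bp1, was covered over 9045 and 8770 bp at E14.5 and 0 and 1842 bp in ISC (chromosome 6, 49160055 to 49169113). The groups did not overlap at Igf2bp3, but it did not pass the test (adjusted p = 0.17). Over 15 alternatives its adjusted p ran from 0.034 to 0.59, and it passed in 2 of them, a pseudocount of 1000 bp and quantile normalization. Meis1, a TALE homeobox factor, was covered over 6521 and 6579 bp at E14.5, 6239 and 6354 bp at E12.5, 0 and 357 bp in ISC and 263 and 697 bp in enterocytes (chromosome 11, 18914382 to 18921020, adjusted p = 0.0030). Trim71, an RNA-binding protein of early development and a let-7 target, had 6087 and 6190 bp at E14.5 and 0 and 1059 bp in ISC (chromosome 9, 114467907 to 114474109, adjusted p = 0.040). In all 4, both E12.5 libraries were also longer than every adult library. Calls at Igf2 (adjusted p from 4e-05 to 0.28), Trim71 (0.00017 to 0.25) and Meis1 (8.6e-06 to 0.052) were lost in 7, 6 and 2 of 15 alternatives, when either E14.5 library was left out among them, and that at Igf2 also without either ISC library.

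Among regions called in all 4 libraries the largest shortening in scaled bp was at Shh, the hedgehog ligand of the fetal gut epithelium. E14.5 had 10204 and 10078 bp and E12.5 7040 and 8783 bp there, against 1160 and 2019 bp in ISC and 934 and 1404 bp in enterocytes (chromosome 5, 28784448 to 28795085). The log2 change was −2.27 (SE 0.19, limma adjusted p = 0.00050), and each E14.5 library had 1 unbroken peak where ISC replicate 2 had 3 short ones. Pcdh7, a protocadherin, had 6298 and 6176 bp at E14.5 and 281 and 272 bp in ISC (chromosome 5, 58105386 to 58111683, log2 change −3.50, SE 0.14, adjusted p = 8.7e-05). The Shh call was lost only among peaks whose −log10 q was 10 or more (adjusted p up to 0.76), and the Pcdh7 call held in all 16 alternatives.

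A further 3 named shorter regions were at genes of varied function. Scd2, a fatty acid desaturase, went from 6972 and 7066 bp at E14.5 to 928 and 1323 bp in ISC (chromosome 19, 44367556 to 44374680, log2 change −2.16, SE 0.37, adjusted p = 0.012). Pkm, a pyruvate kinase of glycolysis, had 5061 and 4386 bp at E14.5 and 1261 and 1714 bp in ISC (chromosome 9, 59503469 to 59508529, log2 change −1.25, SE 0.16, adjusted p = 0.0033). Rps15a, a ribosomal protein, had 4350 and 5486 bp at E14.5 and 1591 and 1599 bp in ISC (chromosome 7, 125254749 to 125260384, log2 change −1.20, SE 0.16, adjusted p = 0.0036). Rps15a differed from the rest in that E12.5, with 1583 and 1467 bp, was as short as ISC, while at Scd2 E12.5 lay between E14.5 and ISC. At Pkm both ISC libraries were shorter than those of every other group. Enterocytes had 2508 and 2451 bp there and E12.5 had 2900 and 2652 bp. The call at Scd2 (adjusted p from 0.0001 to 0.17) was lost in 7 of 16 alternatives, when any 1 of the 4 libraries was left out among them. The call at Pkm was lost among peaks whose −log10 q was 10 or more (up to 0.91), and that at Rps15a when only regions called in all 4 libraries were fitted (0.051).

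The E12.5 and enterocyte libraries did not enter the definition of gained and lost regions, and they show where else each class was called. Both enterocyte libraries called 178 (48.1%) of the 370 gained regions, and neither E12.5 library called 361 (97.6%). Both E12.5 libraries called 358 (15.7%) of the 2279 lost regions, and neither enterocyte library called 2054 (90.1%). For scale, of the regions called in all 4 libraries 82.8% had a peak in each E12.5 library and 84.8% in each enterocyte library. Those regions were longer, with a median of 1552.5 covered bp at E14.5. The median was 547.75 bp in ISC for gained and 560.5 bp at E14.5 for lost regions. In no library of the other 2 groups were 106 of the gained regions (28.6%) and 1239 of the lost regions (54.4%) called. The share of gained regions called in both enterocyte libraries was 23.3% without ISC replicate 1 and 26.6% without ISC replicate 2. In these 2 settings the other ISC library alone defines gained regions. The share of lost regions called in both E12.5 libraries was 10.2001% without E14.5 replicate 1, 43.7% with lists of equal number, 33.1% with at least 500 covered bp and 0.803% among peaks whose −log10 q was 10 or more. These shares are descriptions without a test. The E12.5 lists held 10699 and 13218 autosomal peaks, the first of them the shortest list of the series. Among peaks whose −log10 q was 10 or more they held 1439 and 6457, against 11612 and 11592 at E14.5. Few regions could therefore be called in both E12.5 libraries at that cut. The enterocyte lists held 11272 and 16567 autosomal peaks, from 12821255 and 22137910 tags. A region missing from them may also hold the mark below what the caller could report at such depth.

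**Figure D4:**
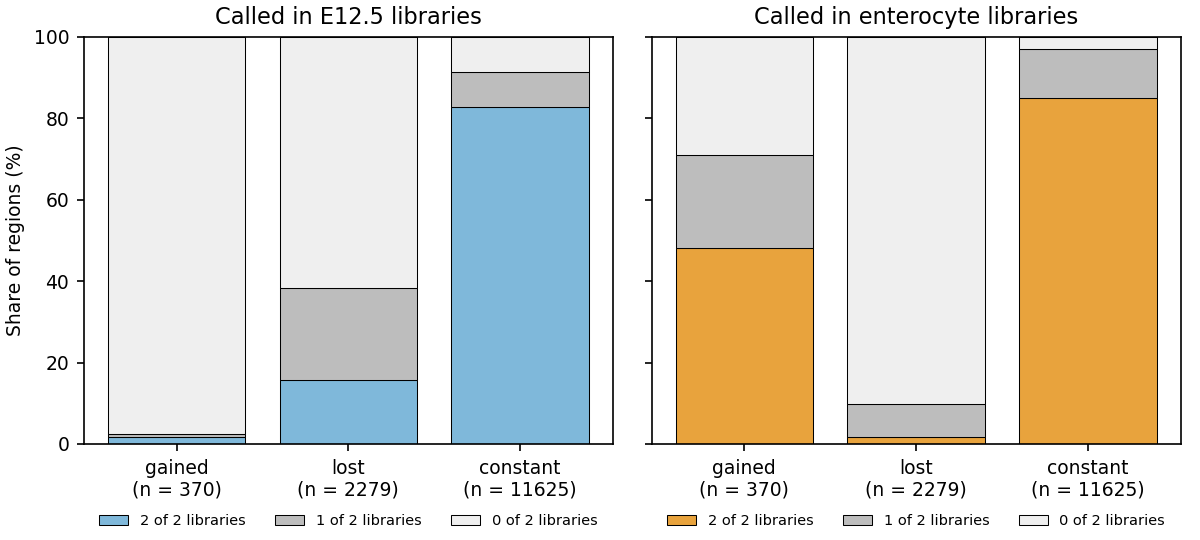
Share of gained, lost and constant regions (called in all 4 ISC and E14.5 libraries) that were called in 2, 1 or 0 of the E12.5 libraries (left) and enterocyte libraries (right), in percent. Both enterocyte libraries called 48.1% of the gained regions (23.3% and 26.6% without ISC replicate 1 or 2) and 1.62% of the lost ones (6.02% without ISC replicate 2 and 7.00% with at least 500 covered bp).

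Both shares were higher among wider regions. Shares by width were not computed for regions called in all 4 libraries. Whether the rise is particular to gained and lost regions was therefore not tested. Of the gained regions under 500 bp in the ISC mean, 32.5% of 169 had a peak in each enterocyte library, and of those of at least 2000 bp, 15 of 19 (78.9%). Of the lost regions under 500 bp in the E14.5 mean, 0.719% of 973 had a peak in each E12.5 library, and of those of at least 2000 bp, 31 of 40 (77.5%). None of these 40 was called in both enterocyte libraries. By number, most of the lost regions called in both E12.5 libraries were of middle length, with 160 of the 358 between 500 and 1000 bp and 160 between 1000 and 2000 bp.

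**Figure D5:**
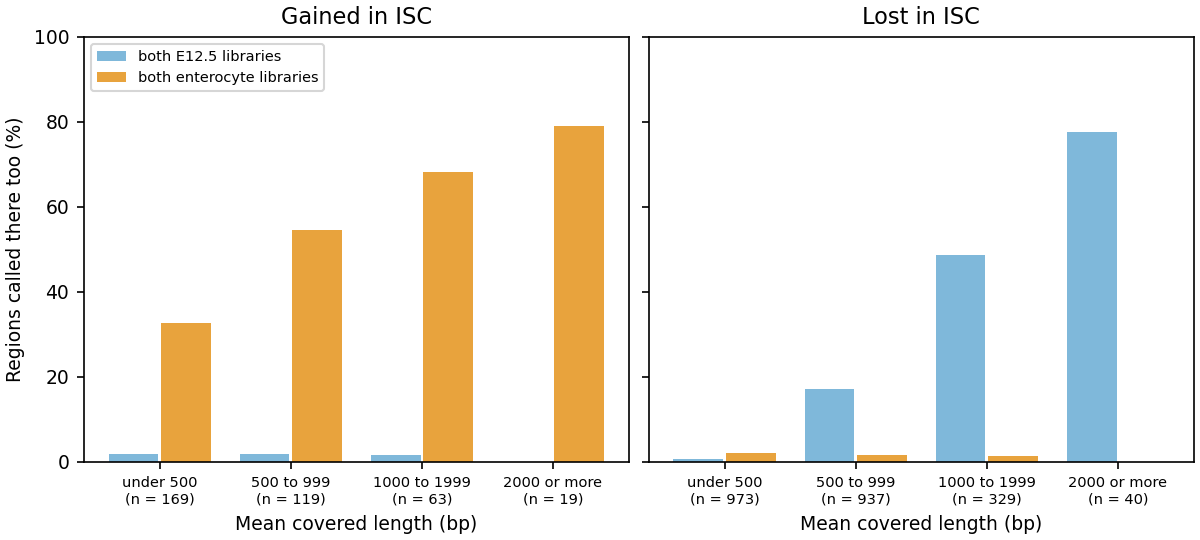
Share of gained regions (left) and lost regions (right) called in both E12.5 libraries or both enterocyte libraries, in percent, by mean covered length in the group that calls them, with the number of regions per bin. The share in enterocytes climbs to 78.9% for gained regions of 2000 bp or more, and the share at E12.5 to 77.5% for lost ones. Shares by width were not computed for regions called in all 4 libraries.

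Gained and lost regions were weakly enriched by the authors' own measures. The median of the authors' −log10 q was 2.48 and 4.47 over the gained regions in ISC replicates 1 and 2, against 10.4 and 28.4 over regions called in all 4 libraries. For lost regions it was 4.86 and 5.08 in E14.5 replicates 1 and 2, against 43.4 and 40.4. Only 0.541% of gained regions in ISC replicate 1 and 11.4% in ISC replicate 2 reached a −log10 q of 10, and 20.8% and 19.9% of lost regions did so at E14.5. Wide domains of both sides lay on either side of the medians of constant regions. At Igf2bp1 the authors' −log10 q was 66.0 and 58.4 in the E14.5 libraries and at Trim71 66.3 and 60.2, above those medians, while at Igf2 it was 33.7 and 30.7 and at Meis1 31.4 and 25.04, below them. In the ISC libraries it was 5.74 and 8.95 at Olfm4 and 10.21 and 17.6 at Pigr, below the medians, and 11.2 and 31.8 at Lrig1 and 13.6 and 36.2 at Axin2, above them.

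The widest domains as such were compared in lists of equal number, the 500 widest peaks of each library. Between an ISC and an E14.5 library 57.6% to 61.8% of them overlapped, with a mean of 60.3%. The 2 ISC libraries shared 73.8% and the 2 E14.5 libraries 83.6%, so each pair of replicates, called against the same input, shared more than any pair across the groups. Regions among the widest in both ISC libraries numbered 369, of which 244 (66.1%) were also among the widest in both E14.5 libraries, 53 were longer in ISC by limma and 3 were called in neither E14.5 library. In the other direction, 418 regions were among the widest in both E14.5 libraries, of which the same 244 make up 58.4%, 36 were shorter in ISC, 5 were longer, and 4 were called in neither ISC library. Wide domains that were called at both stages but differed in length thus outnumbered wide domains missing from the lists of 1 stage.

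By position, lost regions lay farther from constant regions than gained ones did, a description without a test. More than 50 kb from the nearest constant region lay 58.9% of lost, 39.5% of gained and 36.0% of constant regions. The 1-Mb window with the most lost regions held 13 of them among 50, on chromosome 13 from 23362020 to 23598628. A window on chromosome 3, from 96131661 to 96474505, held 11 of 40. Another on chromosome 18, from 37337934 to 37916209, at the clustered protocadherins, held 10 of 26. A further 2 windows with 10 lost regions, of 41 and of 60, were on chromosome 7, from 29075663 to 29910195 and from 52347339 to 52955603. Over all regions the lost share was 11.8%. For gained regions the densest window held 4 of 42, on chromosome 17 from 34424079 to 34655455, and includes Btnl4. The protocadherin cluster was named from general knowledge of the build and was not checked by neighbouring genes. The other windows with lost regions go by position. Clustered genes can come in similar copies, and how reads that align to several copies were treated is not given in the sources used here. Counts in all these windows are therefore uncertain.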

How the data were processed

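Members, gene names and lists were chosen with earlier results of these data known. Per the file headers, the authors called broad peaks per library, without pooling replicates, with MACS 2.0.10.20130712 at a q-value cutoff of 0.01, and the duplicates share 1 input library. Named in the submitters' processing notes are bcl2fastq 1.8.4, Bowtie 1.1.2, SAMtools 1.2, MACS2 and the build mm9. Chromatin was sheared to 350 to 700 bp per the labels' protocols. Per the file headers, the deposited values are each peak's position and length, its pileup signal, the −log10 p-value and q-value and the fold enrichment over input as a ratio. Only positions, lengths and the −log10 q and fold of the authors were used here. The lowest −log10 q in the lists was between 1.01 and 1.09, below what the stated cutoff would leave.

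Covered bp per region and library was divided by the library's factor, and log2(covered bp + 200) was tested with limma 3.58.1 in R 4.3.3. All 8 libraries entered the fit over regions called in at least 2 of the 4 ISC and E14.5 libraries, with 4 residual and 1.55 prior degrees of freedom, two-sided, with Benjamini-Hochberg adjustment over 16087 regions at 0.05. Because of the added 200 bp, log2 changes of short regions are understated, and they are not given where a library of either group had 0 bp. Leaving out a library kept the regions and dropped that library from the scaling and the fit, a choice made after a first version, which rebuilt the regions, had been seen. The other alternatives were further pseudocounts, scalings, minimum numbers of libraries, a replicate block, an untrended prior, wider merging, lists of equal number (12738 peaks) and peaks whose −log10 q was 10 or more.

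Named are the 8 widest gained and 8 widest lost regions, the 4 regions per direction with the largest difference among those called in both libraries of 1 group and 1 of the other, and the 6 longer and 6 shorter regions with the largest scaled change among those called in all 4 libraries, of which 1 of the shorter regions is not reported here. No mm9 annotation was used, so exons and introns were not analysed here and the marker lists of other cell types (leukocytes, endothelium, mesenchyme, neurons) were not examined. Gene names come from general knowledge of mm9, 5 of them given with the comparison. They were checked by whether the neighbours of a gene in RefSeq GRCm38.p6, laid out at their spacing up to 1000000 bp away, fall on peaks more often than those of any other gene of the chromosome. Of 56 candidate names tried, 51 could be checked and 34 ranked first. The 17 that did not rank first and 2 that could not be checked were dropped, and 3 that could not be checked (Meis1, Pcdh7 and Lrig1) were kept, so that the ranks of the kept names follow from selection. The distance was widened from 500000 bp after a first result. At that distance 28 ranked first, and Shh, Igf2 and Axin2, which were kept, were among those that did not.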

Additional observations from a re-analysis of the deposited data

How the results depend on the processing

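Depth differs between the libraries, and the peak lists carry no read counts, so a region missing from a list cannot be told apart from one below the caller's threshold. Regions longer in ISC numbered 30 when only regions called in all 4 libraries were fitted and 12 among peaks whose −log10 q was 10 or more, against 565. Shorter regions numbered 16 and 1323 under the same settings, 878 under quantile normalization and 968 with lists of equal number, against 2046. Gained regions numbered 727 with lists of equal number, 11 among peaks whose −log10 q was 10 or more and 216 with at least 500 covered bp, against 370, and lost regions 1043 with lists of equal number, against 2279. Leaving out each library in turn gave 352 to 513 longer and 1643 to 2290 shorter regions. It gave 391 to 1639 gained and 2316 to 3624 lost regions, under the looser rule that by itself raises these counts. Of the 500 widest peaks, 59% to 61.6% were then shared between groups. Among the 1000 widest, 64.25% were shared. Of the called regions, 65.2% were longer in the fit of regions called in all 4 libraries and 0.899% among peaks whose −log10 q was 10 or more. Of the 43 regions reported by name or position 40 were called. Of these, 18 kept their call in each alternative that could test them and 22 lost it in 1 or more. The regions were chosen by these same values, so calls that held are not further support. Among peaks whose −log10 q was 10 or more, 12 of the 43 could not be tested. At that cut E12.5 replicate 1 kept 1439 autosomal peaks, against 11612 and 11592 at E14.5. All 8 libraries enter the spread, and how far the E12.5 values account for calls lost at that cut was not tested. No called region changed direction. Lgr5 and Ascl2, which were not called, reversed to log2 changes of −1.71 and −1.47 among peaks whose −log10 q was 10 or more. Neither passed the test there (limma adjusted p = 0.89 at both), and the cause was not tested. ISC replicate 1 kept 6173 autosomal peaks at that cut and ISC replicate 2 kept 9917. Whether ISC replicate 1 still had a peak at either locus was not examined. The reversed values are therefore not read as shorter domains in ISC. With the replicate number as a block 530 regions were longer and 2000 shorter. The numbers are shared by 2 pairs only, their deviations correlated at 0.15 over regions, and nothing in the labels says that they pair the samples. The block ended the calls at Peg3 and Trim71 and on chromosome 18 from 86879399.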

Other observations

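Genes subject to genomic imprinting, expressed from 1 parental allele, stood among the named regions, and the values of 5 further imprinted loci are given here. They were chosen after their values were seen, so the list has no test. H19, a maternally expressed RNA beside Igf2, was covered over 2386 and 2469 bp at E14.5, 1843 and 2164 bp at E12.5 and 0 bp in all 4 adult libraries (chromosome 7, 149761555 to 149764023, limma adjusted p = 0.00011). Meg3, a maternally expressed RNA, had 2420 and 2746 bp at E14.5 and 0 bp in all 4 adult libraries (chromosome 12, 110778386 to 110781131, adjusted p = 0.00035).

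Grb10, an adaptor that restrains growth factor signalling, had 4228 and 4167 bp at E14.5 and 0 and 691 bp in ISC (chromosome 11, 11934363 to 11938650, adjusted p = 0.037). Peg3, a paternally expressed zinc finger gene, had 4891 and 5581 bp at E14.5 and 0 and 1007 bp in ISC (chromosome 7, 6679772 to 6685352, adjusted p = 0.047). Both had a short peak in 1 ISC library only, and their calls were lost in 5 and 8 of 15 alternatives, when either E14.5 library was left out among them (adjusted p up to 0.25 and 0.29). A region at Kcnq1, a potassium channel gene that hosts Kcnq1ot1, went the other way, from 447 and 757 bp at E14.5 to 2751 and 3154 bp in ISC (chromosome 7, 150292840 to 150295993, log2 change 2.27, SE 0.49, adjusted p = 0.030). It had 353 and 1422 bp in enterocytes and 0 bp at E12.5, and its call was lost in 7 of 16 alternatives, when any 1 of the 4 libraries was left out among them (adjusted p from 0.0012 to 0.27).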
